A study of Mus musculus with 4 samples.

Results

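Secreted senescence and inflammatory factors of aged mouse pancreatic islet cells were followed after exposure to the mitochondrial peptide MOTS-c. They comprised 8 genes, chosen by name: Il1a, Il1b, Il6, Cxcl1, Cxcl10, Tnf, Ccl2 and Timp1. These were 8 of 22911 genes named on the array, and they were read by 11 of its 56605 gene probes. The rule used their names only, and the set was drawn up with earlier results of these data known. The control group was 2 samples of islet cells given 10 μM scrambled peptide for 24 h outside the animal (replicates 1 and 2). The other was 2 samples given 10 μM MOTS-c for the same time (replicates 2 and 3). All cells came from 4 littermate C57BL/6 mice that were 60 weeks old and labelled male. The islets had been handpicked and dispersed, so each sample was a bulk preparation of every cell type left in it. RNA was read on 1-colour Agilent arrays, 1 array a sample, and all 4 arrays lay on 1 slide. The labels do not tie a given array to a given mouse, and p-values here measure only the spread between these 4 samples.

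Senescent cells stop dividing but go on secreting cytokines, chemokines and proteases together with their inhibitors, a programme known as the senescence-associated secretory phenotype. Interleukin-1α and interleukin-1β act on the same receptor, signal through NF-kB and induce further factors such as interleukin-6 and the chemokines, which recruit leukocytes. In islets, interleukin-1β is known both as a product of resident macrophages and as a signal that impairs beta cells, and CXCL10 is induced by interferons.

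The stretches just before the start sites of these genes differ in their letter matches to motifs known from such signals. Whether a match is used in these cells was not tested. The 250 bases before the annotated start site were available for 7 of the 8 genes (all but Ccl2) from RefSeq, build GRCm38.p6, and were searched on both strands for the NF-kB consensus, for the AP-1 motif TGANTCA and for the core of the interferon-stimulated element (GAAA on both sides of any 2 bases). The NF-kB consensus was found in 3 of 7 windows (Il6, Cxcl1, Cxcl10) and in 3.90% of 32851 promoter windows of the same length. AP-1 was found in 3 of 7 (Il1a, Il6, Cxcl10) and in 6.75% of all windows. The interferon element core was found in 1 of 7 (Cxcl10) and in 2.98%. Of the 4 windows that follow, Il1b belongs to the gene with the lowest p-values among the members, Cxcl10 to the member with the most matches, and Cxcl1 and Il6 to members that were not above background on any array. Each runs 5′ to 3′ on the strand of its gene, and capitals mark matches to these motifs. Il1b lies at chr2:129371140-129371389 (minus strand), Cxcl10 at chr5:92348890-92349139 (minus strand), Cxcl1 at chr5:90890995-90891244 (plus strand) and Il6 at chr5:30012864-30013113 (plus strand).
Il1b: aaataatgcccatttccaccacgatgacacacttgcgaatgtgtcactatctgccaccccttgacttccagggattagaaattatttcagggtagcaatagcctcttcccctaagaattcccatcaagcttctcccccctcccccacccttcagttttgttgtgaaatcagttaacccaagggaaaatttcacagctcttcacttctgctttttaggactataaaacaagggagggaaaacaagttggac
Cxcl10: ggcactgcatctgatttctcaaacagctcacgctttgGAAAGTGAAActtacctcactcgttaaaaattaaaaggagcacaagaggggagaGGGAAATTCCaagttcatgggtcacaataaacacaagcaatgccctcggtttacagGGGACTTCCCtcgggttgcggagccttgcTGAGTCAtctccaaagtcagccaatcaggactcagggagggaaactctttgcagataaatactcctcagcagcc
Cxcl1: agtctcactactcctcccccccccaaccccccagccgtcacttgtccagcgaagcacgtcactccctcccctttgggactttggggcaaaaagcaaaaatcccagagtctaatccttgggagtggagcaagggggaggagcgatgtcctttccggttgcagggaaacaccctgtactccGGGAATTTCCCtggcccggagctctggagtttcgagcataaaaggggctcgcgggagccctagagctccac
Il6: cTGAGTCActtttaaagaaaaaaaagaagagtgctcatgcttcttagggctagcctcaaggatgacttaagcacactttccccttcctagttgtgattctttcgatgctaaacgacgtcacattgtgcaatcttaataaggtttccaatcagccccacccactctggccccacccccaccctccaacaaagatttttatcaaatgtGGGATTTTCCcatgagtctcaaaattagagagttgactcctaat
In the Cxcl10 window, the interferon element core lay from -213 to -204, NF-kB matches from -159 to -150 and from -103 to -94, and AP-1 from -74 to -68, counted from the start site. The Cxcl1 window held an NF-kB match on each strand, overlapping by all but 1 base, that together spanned -71 to -61. The Il6 window had AP-1 from -249 to -243 and NF-kB from -44 to -35. None of the 3 motifs was matched in the Il1b, Tnf or Timp1 windows, which says only that these letters were not in these 250 bases.

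The arrays were alike in quality, with 61.6 to 65.0% of gene spots well above background and 96 to 131 outlier spots left out on each. MOTS-c replicate 3 lay farthest from the others, with a mean Euclidean distance of 78.3 over 35084 probes against 66.6 to 69.6 for the other 3 arrays, and values without it are given beside the results that it moves most. The hormone genes Ins1, Ins2, Iapp and Gcg were well above background on 4 of 4 arrays, and 8 of 9 beta cell markers were tested (all but Ucn3). The label of male sex was not borne out, as Xist, which is transcribed from the inactive X chromosome, was 23.7 to 33.5 times local background and well above it on 4 of 4 arrays, whereas 7 Y-linked probes were well above background in 0 of 28 readings.

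Of the 8 genes, 4 were well above background on all 4 arrays (Il1b, Cxcl10, Tnf and Timp1), 1 on 2 arrays (Ccl2) and 3 on none (Il1a, Il6 and Cxcl1). By probe, 6 of 11 (54.5%) passed the filter of at least 2 arrays well above background, against 62.0% of all gene probes, and 5 of 11 (45.5%) were above on no array, against 34.6%. The Il1a spot read 0.897 and 1.03 times its local background in the scrambled samples and 0.854 and 0.775 times in the MOTS-c samples. Il6, the systemic cytokine of the acute phase response, had both its probes at background. They read 0.943 to 1.34 times over the 4 arrays, with the highest ratio of each in scrambled replicate 2 (1.34 and 1.22 times). Cxcl1, a neutrophil chemoattractant, read 0.890 and 1.25 times in the scrambled samples against 1.04 and 0.921 times after MOTS-c. For these 3 genes neither group held a measured level, and no fold change is given. Tnf was read by a pair of probes that differed in detection: A_51_P385099 was at 0.886 to 1.03 times background on the 4 arrays, and A_55_P2740937 was at 4.35 to 6.55 times.

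**Figure D1:**
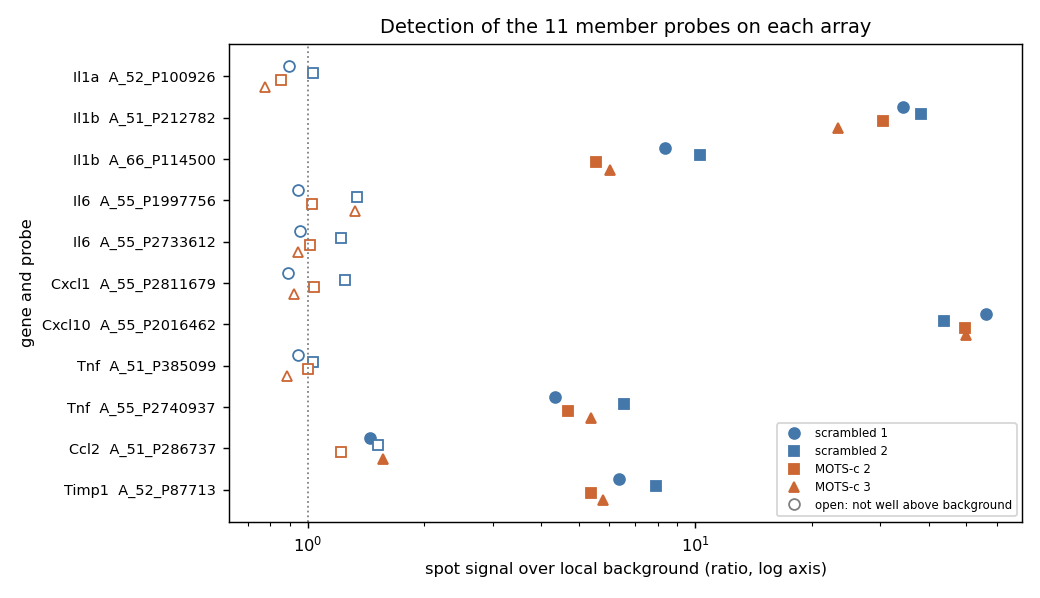
Ratio of the spot signal to its local background (x axis, log scale) for the 11 probes of the 8 genes on each of the 4 arrays, with filled points well above background and open points not. Il1b and Cxcl10 sit farthest to the right, whereas both Il6 probes and the Il1a and Cxcl1 probes stay between 0.775 and 1.34 on every array.

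Il1b, which encodes the interleukin-1β precursor, was lower in both MOTS-c samples by both of its probes. Probe A_51_P212782 had deposited intensities of 1172 and 1137 in scrambled replicates 1 and 2 and of 952 and 790 in MOTS-c replicates 2 and 3. After quantile normalization its log2 intensities were 10.16 and 10.27 in the scrambled samples against 9.87 and 9.56 in the MOTS-c samples. The groups did not overlap, and a gap of 0.28 on the log2 scale separated the lower scrambled from the higher MOTS-c value. Probe A_66_P114500 had intensities of 291 and 271 in the scrambled samples and of 201 and 219 in the MOTS-c samples, and normalized log2 intensities of 8.15 and 8.21 against 7.68 and 7.67. These groups did not overlap either, with a gap of 0.46, and here the 2 MOTS-c samples lay within 0.02 of each other.

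The log2 difference, MOTS-c minus scrambled, was -0.49 (SE 0.16, 95% interval -0.91 to -0.07) by the first Il1b probe and -0.50 (SE 0.12, 95% interval -0.82 to -0.19) by the second. On the linear scale the MOTS-c level was 0.710 (interval 0.530 to 0.950) and 0.706 (interval 0.568 to 0.877) of the scrambled level. The moderated test of limma gave unadjusted p = 0.0298 and 0.00981, and neither probe passed after Benjamini-Hochberg adjustment over all 35087 probes tested (adjusted p = 0.570 and 0.516). Nothing on the array did: 0 of 35087 probes (0%) reached an adjusted p under 0.05, the smallest being 0.474, and 2755 (7.85%) had an unadjusted p under 0.05, of which 1692 (4.82% of those tested) were lower. Both Il1b differences were also under the 1.5-fold size used for the second call, which 1239 probes (3.53%) met, 852 lower (2.43%) and 387 higher (1.10%). An exact permutation test of 2 samples against 2 cannot go below p = 0.333, two-sided. Both probes match one RefSeq transcript, so they are repeated readings of the same RNA and not additional samples.

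Leaving out any 1 array kept the sign of both Il1b differences. Without MOTS-c replicate 3, the array that stood apart, they were -0.34 and -0.50 (limma, unadjusted p = 0.111 and 0.0366, adjusted p = 0.885 and 0.791), and without MOTS-c replicate 2 they were -0.65 and -0.51 (limma, unadjusted p = 0.0162 and 0.0332, adjusted p = 0.307 and 0.346). Without scrambled replicate 2, neither probe kept an unadjusted p under 0.05 (-0.44 and -0.47, limma unadjusted p = 0.129 and 0.0633).

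Among the markers of macrophages, a known source of interleukin-1β in islets, 5 of 12 were tested, 4 of them detected throughout. The summed linear level of the 5 was 4116 and 5388 in the scrambled samples and 4231 and 3524 in the MOTS-c samples, so that the groups overlapped, with a log2 difference of the mean sums of -0.29. C1qa, a complement subunit made by macrophages, differed by -0.67 (limma, unadjusted p = 0.0212, adjusted p = 0.548) with no overlap. Csf1r, the receptor for macrophage colony-stimulating factor, differed by -0.21 and Cd68, a lysosomal macrophage protein, by 0.16, both with overlapping groups. Cd14, the lipopolysaccharide co-receptor, was well above background only in the MOTS-c samples and passed the filter through them alone. It differed by 0.51 (limma, unadjusted p = 0.0482, adjusted p = 0.628) with no overlap, opposite in direction to C1qa. Such a filter favours a higher MOTS-c value, so the Cd14 values are a description and not a test. C1qb differed by -0.20 with overlap. Adgre1, Lyz2, C1qc, Mrc1, Fcgr1 and Ptprc were well above background on no array. The part of macrophage content in the Il1b values was not tested, and in such bulk samples fewer cells of a type and less RNA per cell cannot be told apart.

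Tnf, the cytokine that signals through TNFR1 and TNFR2, showed no separation by its detected probe A_55_P2740937. Its log2 intensities were 6.78 and 7.31 in scrambled replicates 1 and 2 and 7.00 and 7.06 in the MOTS-c samples. Both MOTS-c values lay between the scrambled values. The log2 difference was -0.01 (SE 0.21, 95% interval -0.56 to 0.55; limma adjusted p = 0.997), which leaves any MOTS-c level from 0.678 to 1.46 of the scrambled level within the interval. Its sign depended on the scrambled array left out, at -0.27 without scrambled replicate 1 and 0.26 without scrambled replicate 2.

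The chemokine Cxcl10, a ligand of CXCR3 that draws activated T cells, was 44.0 to 56.4 times local background over the 4 arrays. Its log2 intensities were 10.70 and 10.56 in the scrambled samples and 10.46 and 10.53 in the MOTS-c samples. The groups did not overlap, but only 0.03 separated scrambled replicate 2 from MOTS-c replicate 3. The log2 difference was -0.13 (SE 0.13, 95% interval -0.47 to 0.20; limma adjusted p = 0.843), or 0.913 of the scrambled level (interval 0.724 to 1.15). Of all tested probes, 52.9% differed by as much or more in either direction.

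Ccl2, the monocyte chemoattractant MCP-1, was close to the limit of detection. It was 1.22 to 1.56 times local background and well above it in scrambled replicate 1 and MOTS-c replicate 3 only. Its log2 intensities of 4.30 and 3.92 in the scrambled samples and of 3.69 and 4.53 in the MOTS-c samples overlapped, and the MOTS-c samples held both the lowest and the highest value. The log2 difference was 0.00 (SE 0.33, 95% interval -0.85 to 0.86; limma adjusted p = 0.999). Which array was left out fixed its sign, from -0.42 without MOTS-c replicate 3 to 0.42 without MOTS-c replicate 2.

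Timp1, a secreted inhibitor of matrix metalloproteinases, had log2 intensities of 7.62 and 7.86 in the scrambled samples and of 7.44 and 7.56 in the MOTS-c samples. The MOTS-c values were both lower, and 0.06 set scrambled replicate 1 apart from the nearer MOTS-c value, replicate 3. The log2 difference was -0.24 (SE 0.15, 95% interval -0.62 to 0.14; limma unadjusted p = 0.164, adjusted p = 0.753), or 0.847 of the scrambled level (interval 0.650 to 1.10). Of the markers of mesenchymal cells, which also make TIMP-1, 3 of 9 were tested. Their summed linear level was 5622 and 5126 in the scrambled samples and 4845 and 4823 in the MOTS-c samples. Acta2 made up most of that sum and differed by -0.14 (limma, unadjusted p = 0.332). Col1a2 differed by -0.30 with overlap, and Pdgfra by -1.05 (limma, unadjusted p = 0.0289, adjusted p = 0.567) without overlap. The defining markers Col1a1, Col3a1, Dcn, Lum, Pdgfrb and Rgs5 were above background on no array. The acinar sum was lower after MOTS-c as well, at 3598 and 3927 against 2518 and 2031, with 3 of 7 markers tested. Cela1 made up most of that sum (log2 difference -0.76), Ctrb1 differed by 0.33 in the other direction without overlap, and Prss1, Amy2a5 and Pnlip were well above background on no array. The neutrophil sum (2 of 6 markers tested, mostly Csf3r) went the other way, at 28015 and 33021 against 32965 and 52076, with overlap. Csf3r had log2 intensities of 14.76 and 15.00 in the scrambled samples. They were 15.00 and 15.66 in MOTS-c replicates 2 and 3, so the high value was that of MOTS-c replicate 3. S100a8 and S100a9 were well above background on no array, and Mpo on 1. The log2 difference of the mean neutrophil sums was 0.48, with 0.05 for alpha and 0.03 for endothelial markers. It was -0.03 for beta, -0.08 for T and B cell, -0.31 for delta and PP and -0.39 for ductal markers. The part of any of these cell types in the values of the members was not tested.

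**Figure D2:**
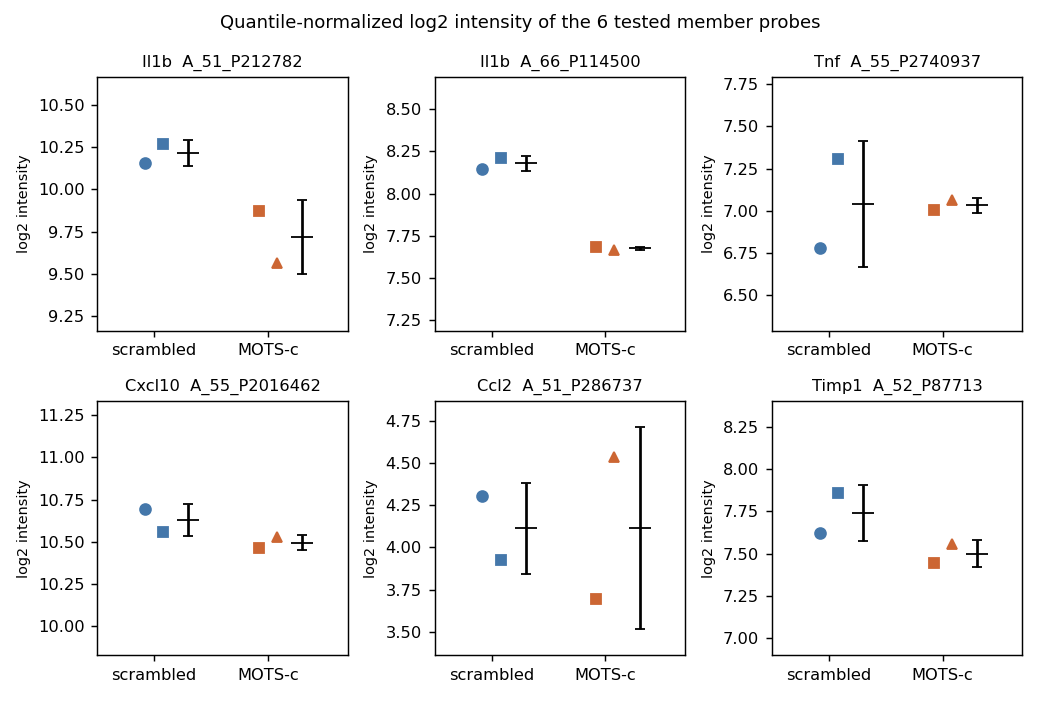
Quantile-normalized log2 intensity (y axis, each panel spanning the same range) of the 6 tested probes in 2 scrambled and 2 MOTS-c samples, with group means and SD as black bars and circles, squares and triangles for replicates 1, 2 and 3. The Il1b panels show the widest separation of the groups, at gaps of 0.28 and 0.46, against 0.03 for Cxcl10 and 0.06 for Timp1. Levels cannot be compared between panels because each probe binds its target differently.

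Taking the tested probes together, 4 of 6 did not overlap between the groups and were lower after MOTS-c (the Il1b pair, Cxcl10 and Timp1), and 0 did not overlap and were higher. Across the array 38.0% of probes did not overlap, 18.6% lower and 19.4% higher. By unadjusted p under 0.05 the members had 2 of 6, both of Il1b, and by that p with 1.5-fold they had 0 of 6. The median log2 difference of the 6 probes was -0.19, against 0.01 over all tested probes, whose middle range ran from -0.13 to 0.15. With 6 probes from 5 genes, these counts describe the members and were not tested as a set.

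**Figure D3:**
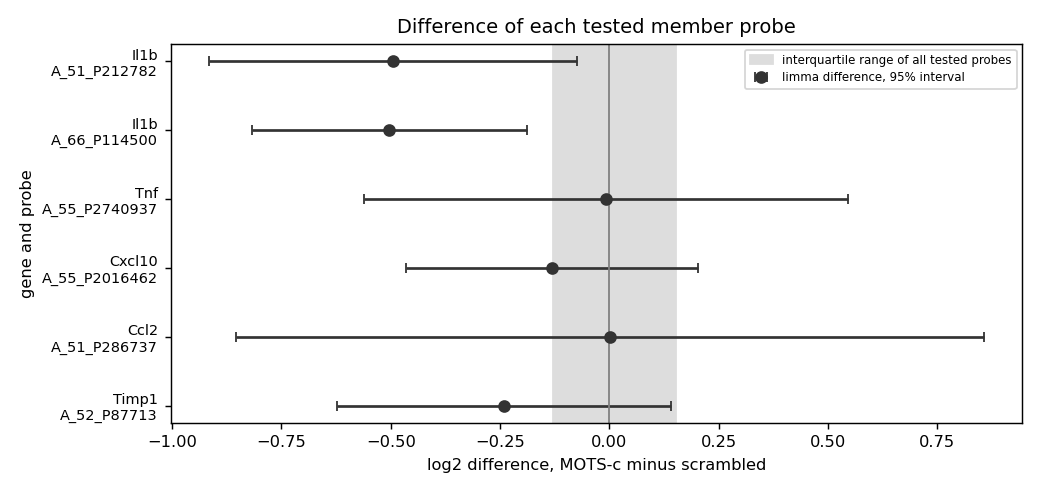
Log2 difference, MOTS-c minus scrambled (x axis), of the 6 tested probes as points with 95% intervals from limma, and the middle range of all 35087 tested probes, -0.13 to 0.15, as a grey band. The intervals of both Il1b probes lie below 0, whereas those of Tnf, Cxcl10, Ccl2 and Timp1 include 0.

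**Figure D4:**
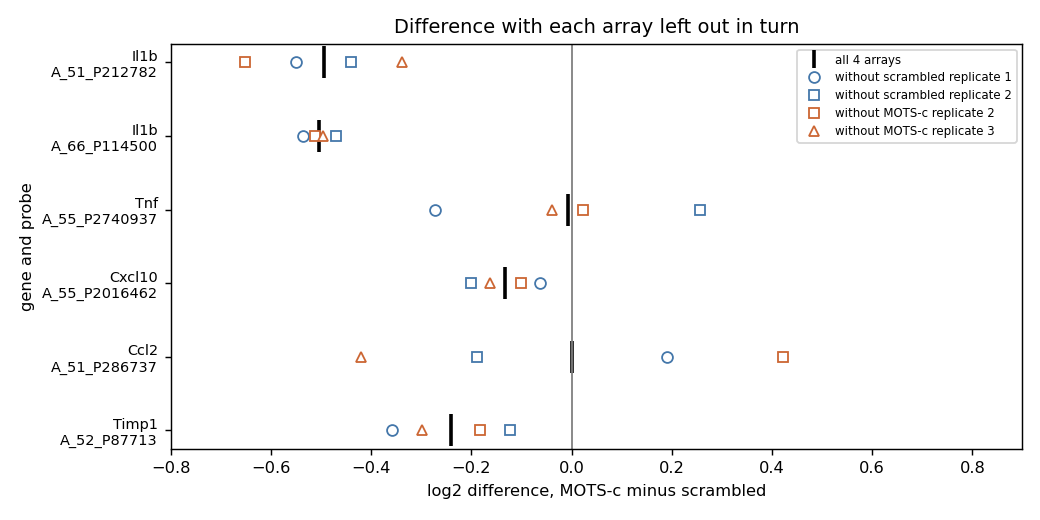
Log2 difference of the same 6 probes with all 4 arrays (black bars) and with each array left out in turn (open points). Il1b, Cxcl10 and Timp1 stayed below 0 in every case, with Cxcl10 at -0.06 without scrambled replicate 1 and Timp1 at -0.12 without scrambled replicate 2, and Tnf and Ccl2 fell on both sides of 0.

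The other genes of the secretory and inflammatory programme were taken as 7 lists, 158 genes in all, each gene read through its brightest tested probe. Of these, 94 genes were tested and 0 passed the adjusted threshold. By unadjusted p under 0.05 with 1.5-fold, 3 were higher and 3 lower (6 of 94, against 3.53% of all probes). Of the higher calls, Ccl5 and Mmp3 passed the filter through the MOTS-c arrays only, which favours a higher value there. With no overlap of the groups, 23 were higher and 22 lower (45 of 94, against 38.0%). The median log2 difference of the 94 genes was 0.01.

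Few other cytokines and chemokines were detected in these cells. Of 25 further cytokines 10 were tested and of 22 further chemokines 5 were. Tnfsf10, the death ligand TRAIL, had the lower cytokine call, with log2 intensities of 8.19 and 7.80 against 7.25 and 7.16 (log2 difference -0.79, SE 0.17; limma unadjusted p = 0.00746, adjusted p = 0.505). The Tnfsf10 call was lost under normexp, where the difference was -0.51 and under 1.5-fold, and by the methods' t-test. Ltb, which encodes lymphotoxin β, differed by 0.52 (limma unadjusted p = 0.0257), under 1.5-fold, and by 0.30 under normexp. Among chemokines Ccl5 had the higher call but was well above background on the MOTS-c arrays only. Its measured log2 means were 4.24 after MOTS-c and 3.58 in the scrambled samples (limma adjusted p = 0.566). The MOTS-c mean was 1.14-fold the detection floor of the scrambled arrays. Its log2 difference was 0.13 in place of 0.66 under normexp background correction. The Ccl5 call was lost under normexp, under limma with an intensity trend (unadjusted p = 0.0987) and by the methods' t-test. It was also lost without scrambled replicate 1 (0.44) and without MOTS-c replicate 2 (0.52). The detection floor was the dimmest signal well above background on each scrambled array. The ratio to it holds no sampling error and is not a lower limit of the difference. Cxcl16, a membrane-anchored chemokine that also binds oxidized lipoprotein, differed by -0.52 (unadjusted p = 0.0152 by limma, adjusted p = 0.538) by its brighter probe. Its second probe differed by -0.97 (limma unadjusted p = 0.00086) and met the 1.5-fold call, as did the mean of both (-0.75, limma unadjusted p = 0.00125, adjusted p = 0.309), so that Cxcl16 is uncalled in the count above only because 1 probe a gene was used. Cxcl12, a ligand of CXCR4, differed by -0.18 with overlapping groups, and by 0.21 without MOTS-c replicate 3. A second Cxcl12 probe differed by -0.54 (limma unadjusted p = 0.140), also with overlap, and the mean of both by -0.36.

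Among the matrix enzymes and inhibitors listed beside Timp1, 8 of 18 genes were tested, with 3 higher and 1 lower without overlap, against 19.4% and 18.6% of all probes, and a median log2 difference of 0.08. Mmp3, a metalloproteinase of the secretory phenotype, was well above background on the MOTS-c arrays only and passed the filter through them. Its measured log2 means were 4.70 after MOTS-c and 3.82 in the scrambled samples (limma adjusted p = 0.491). The MOTS-c mean was 1.54-fold the detection floor of the scrambled arrays, which again is not a lower limit of the difference. Its log2 difference was 0.15 in place of 0.89 under normexp background correction. The Mmp3 call was lost there and by the methods' t-test. Timp3, an inhibitor bound to the matrix, differed by -0.79 (SE 0.32, unadjusted p = 0.0606 by limma) with log2 intensities of 8.72 and 9.03 against 8.51 and 7.66, so that the low value was that of MOTS-c replicate 3. Its difference was -0.36 without that array and -1.21 without MOTS-c replicate 2. A second Timp3 probe differed by -1.16 (limma unadjusted p = 0.0463) and met the 1.5-fold call that the brighter probe did not. Adam17, the sheddase that releases TNF from the membrane, differed by 0.53 (SE 0.12, unadjusted p = 0.00971 by limma, adjusted p = 0.515) and by 0.42 through a second probe, and neither value overlapped. Of 18 tested genes of 26 among the other secreted factors, Gdf15, a stress-induced cytokine, was called lower (log2 difference -0.65, SE 0.19; limma unadjusted p = 0.0197, adjusted p = 0.544). The Gdf15 call was lost under normexp (-0.43), by the methods' t-test, and without scrambled replicate 2 (-0.47) or MOTS-c replicate 3 (-0.53). Plau, the urokinase plasminogen activator, differed by 0.37, and by 0.11 under normexp.

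Receptors and processing enzymes for these factors had the most genes of any of the lists that were lower without overlap, 8 of 18 tested, and 2 of 18 that were higher, against 18.6% and 19.4% of all probes. Il1rap, the co-receptor subunit needed for interleukin-1 signalling, was called higher and had the smallest p-value of the list. Its log2 intensities were 9.46 and 9.46 in the scrambled samples and 10.19 and 10.19 in the MOTS-c samples (log2 difference 0.73, SE 0.12; limma unadjusted p = 0.00205, adjusted p = 0.474). A second probe differed by 0.36, and the mean of both, at 0.54, was under 1.5-fold. Il1r1, the signalling receptor, differed by -0.15. The decoy receptor Il1r2 differed by -0.80 (SE 0.43; limma unadjusted p = 0.122), with a low value in MOTS-c replicate 3. Its difference was -0.20 without that array, -1.41 without MOTS-c replicate 2 and -0.24 under normexp. Casp1, which cleaves the interleukin-1β precursor, differed by -0.18, and Gsdmd, the pore through which the cytokine leaves the cell, by -0.53 (limma unadjusted p = 0.0173, adjusted p = 0.539). Casp1 and Gsdmd were singled out after their values were seen. Il1rn and Nlrp3 were each well above background on 1 array and were not tested.

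In the NF-kB list 20 of 24 genes were tested, with 6 lower and 1 higher without overlap, against 18.6% and 19.4% of all probes, and a median log2 difference of 0.02. Relb, a subunit of the alternative NF-kB pathway, was called lower, with log2 intensities of 9.95 and 9.89 against 9.43 and 9.22 (log2 difference -0.60, SE 0.14; limma unadjusted p = 0.00863, adjusted p = 0.512) and a second probe at -0.47. The Relb call was lost without scrambled replicate 1 (-0.57) or MOTS-c replicate 3 (-0.49) and with the mean of its probes (-0.53). Bcl3, a nuclear partner of NF-kB p50 and p52, differed by -0.56 (unadjusted p = 0.00874 by limma) and did not reach 1.5-fold. The interferon list, a group known to respond to the same cytokines as Cxcl10, had 8 of 15 tested genes higher and 3 lower without overlap, against 19.4% and 18.6% of all probes, and a median of 0.13. The interferon genes with the largest differences were Ifih1, an RNA sensor, at 0.49 (limma unadjusted p = 0.0272) and Gbp3, a guanylate-binding protein, at 0.47 (limma unadjusted p = 0.0323). Both were under 1.5-fold, and under normexp they were 0.26 and 0.28.

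**Figure D5:**
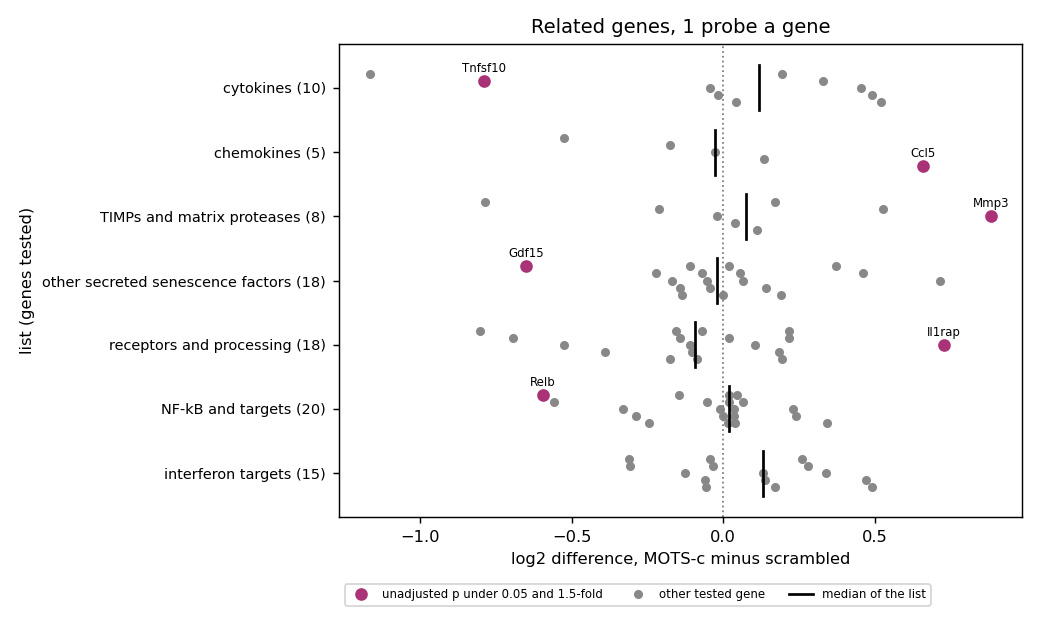
Log2 difference, MOTS-c minus scrambled (x axis), of the 94 tested genes in 7 lists (y axis, number tested in brackets), 1 probe a gene, with list medians as black bars and the 6 genes at unadjusted p under 0.05 and 1.5-fold in purple. Tnfsf10, Gdf15 and Relb lie on the lower side and Ccl5, Mmp3 and Il1rap on the higher side, and the medians stay between -0.09 and 0.13. Ccl5 and Mmp3 passed the filter through the MOTS-c arrays only.

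Likeness of pattern over the 4 arrays was measured as the Euclidean distance between log2 profiles, each centred on its own mean, among the 94 tested list genes. The nearest to Il1b was Tnfrsf1a, the receptor TNFR1 (distance 0.123, log2 difference -0.39). The nearest to Cxcl10 was Il1r1 (0.0272), to Timp1 the interferon target Oasl2 (0.0843), to Ccl2 the interferon target Rsad2 (0.131) and to Tnf the protease inhibitor Serpine2 (0.206). These distances rest on 4 arrays and are descriptions only.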

How the data were processed

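RNA of 4 islet cell samples (2 scrambled, 2 MOTS-c) was measured on 1-colour Agilent mouse arrays. The authors deposited Feature Extraction 11.0.1.1 spot files with background-subtracted intensity (processed signal) and a table of the same intensities rounded, which was an alternative here. Gene probes were named through RefSeq accessions (32994 of 56605). From the deposited intensity, control and outlier spots were left out, repeated spots of each probe were averaged, a probe was kept if 2 or more arrays flagged it as well above background (35087; 21518 were not), and log2 values were quantile normalized. The groups were compared with limma 3.58.1 in R 4.3.3 (lmFit, eBayes; 2 residual and 2.64 prior degrees of freedom), with Benjamini-Hochberg adjustment, and the steps were tested on simulated data. A call was an adjusted p under 0.05, or an unadjusted p under 0.05 with 1.5-fold. The number of arrays limits the precision. Genes named were all member probes, called list genes and otherwise the 2 largest differences a list among genes above background on 4 arrays, and the list gene nearest each member. The members and lists were chosen with earlier results of these data known. Alternatives were the 75th percentile shift, normexp (offset 50), the deposited table, other filters, gene means, an intensity trend, the methods' t-test and leaving out each array.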

Additional observations from a re-analysis of the deposited data

How the results depend on the processing

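No paired analysis was possible because the groups shared only replicate number 2, and a slide block was not run because all arrays lay on 1 slide. Il1b, Cxcl10 and Timp1 kept a negative difference under each alternative run. For Il1b this was -0.65 to -0.34 by A_51_P212782 and -0.54 to -0.47 by A_66_P114500 with each array left out. Tnf ranged from -0.27 to 0.26 and Ccl2 from -0.42 to 0.42 when arrays were left out, Ccl2 was -0.0092 with normexp, and Cxcl12 ranged from -0.56 to 0.21. The cause was not tested. Over all probes, 1 had an adjusted p under 0.05 by the methods' t-test. Calls at unadjusted p under 0.05 with 1.5-fold numbered 407 with normexp, 457 with the methods' t-test and 1391 to 3299 with an array left out (the most without MOTS-c replicate 2), and their lower share (68.8% in the reported fit) was 81.6% with normexp and 52.4 to 67.3% with an array left out. Member probes at unadjusted p under 0.05 numbered 1 with the methods' t-test and 0 to 2 with an array left out, and those also at 1.5-fold numbered 0 to 1 (1 without MOTS-c replicate 2). With gene means the count was 1, because the 2 Il1b probes became 1 value. Without the filter 7 member probes did not overlap, probes at background included. With an array left out the number was 5, a comparison of 1 sample with 2 overlapping less often by construction. List genes called numbered 3 with normexp, 12 without the filter, 2 with the methods' t-test and 5 to 14 with an array left out, and list genes without overlap numbered 71 without the filter and 62 to 79 with an array left out. Each such fit assumes that the lone sample of a group varies like the other group. Probes near background, such as Ccl2, Ccl5 and Mmp3, are limited by their signal.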
